A study of Homo sapiens with 16 samples.

Results

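The genes that encode the proteins of the mitochondrial ribosome were examined for peaks of HIF-1 and HIF-2, the transcription factors that respond to low oxygen. They were taken as the protein-coding genes of the GENCODE annotation on GRCh37 whose symbol starts with MRPL (large subunit) or MRPS (small subunit) followed by a digit. This rule, which uses no measured value, gave 78 of 19820 protein-coding genes, 49 of the large and 29 of the small subunit. Binding had been mapped by ChIP-seq, in which DNA attached to a protein is recovered with an antibody and sequenced, and stretches where reads pile up are listed as peaks. The 16 libraries came from 4 established cancer cell lines, A549 from lung, HCT116 from colon and rectum, PC3 from prostate and T47D from breast. All cells, with no genetic change stated in the labels, had been held at 0.5% oxygen for 16 hours before chromatin was precipitated with rabbit polyclonal antibodies to HIF-1α (PM14) or HIF-2α (PM9). With 2 replicates for each cell line and antibody there were 8 groups, and no library from normal oxygen was analysed here. A gene was called bound in a library when the centre of a peak lay within 1000 bp of a start site of one of its protein-coding transcripts.

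The mitochondrial ribosome translates the few messages encoded by mitochondrial DNA, which specify core subunits of the respiratory chain and the ATP synthase. Its ribosomal RNAs are made inside the organelle, whereas its proteins are encoded by nuclear genes, made in the cytosol and imported. Many of these proteins descend from bacterial ribosomal proteins and others have no bacterial counterpart. HIF-1α and HIF-2α are degraded when oxygen is plentiful and accumulate when it is low, and each binds DNA together with HIF-1β at the core motif RCGTG (R stands for A or G). HIF-1 is known for inducing glycolytic enzymes and for lowering mitochondrial oxygen use.

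The lists held between 275 and 4505 peaks per library. They give no read totals, so the depth is unknown and a gene without a peak is one at which none passed the authors' threshold, not one shown to be free of the factor. The labels do not say whether replicates were separate cultures, so that spread between replicates and the p-values that rest on it may be technical. The lists are those of a single peak caller, before the further filters that the study describes.

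HIF-1α peaks were present at mitochondrial ribosomal protein gene promoters in all 4 cell lines. The Wilson interval of the bound share lay above the share of all genes in a single library, PC3 replicate 2, and not in PC3 replicate 1. HCT116 had 19 bound genes in replicate 2 (24.4%, Wilson 95% interval 16.2 to 34.9) against 17.5% of all protein-coding genes, and 12 in replicate 3 (15.4%, 9.03 to 25.0) against 16.4%. PC3 had 5 in replicate 1 (6.41%, 2.77 to 14.1) against 5.13%, and 20 in replicate 2 (25.6%, 17.3 to 36.3) against 12.4%. T47D had 3 in each replicate (3.85%, 1.32 to 10.7), where the share of all genes was 2.96% in replicate 1 and 2.69% in replicate 2. A549 had 1 in each replicate (1.28%, 0.227 to 6.91) against 1.02% in replicate 2 and 1.83% in replicate 3. The interval covered the share of all genes in every HIF-1α library other than PC3 replicate 2, where it lay above it. In that library the share of protein-coding genes with a CpG-rich promoter was 17.4%, inside the interval. These intervals cover counting error alone and treat genes as independent, which members of one family need not be. They make no allowance for the number of libraries looked at and are a description, not a test.

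In HCT116 and PC3 the replicates differed by more than the gene classes did. The mean was 19.9% ± 6.35 in HCT116 (SD, n = 2), beside 17% ± 0.721 for all genes, and 16.0% ± 13.6 in PC3 (n = 2), beside 8.74% ± 5.11. In T47D the mean was 3.85% ± 0 beside 2.83% ± 0.186, and in A549 1.28% ± 0 beside 1.42% ± 0.571 (n = 2 each). The ratio of the members' share to that of all genes averaged 1.29 over the 8 HIF-1α libraries (SD 0.400, range 0.702 to 2.08) and was above 1 in 6 of them. With the 275 best peaks of each library in place of the whole lists it was 0.559, with MRPL39 the sole gene of the set left. Most of these genes have CpG-rich promoters, and against all 12814 protein-coding genes with such a promoter the mean ratio was 0.908 (range 0.498 to 1.47), above 1 in 1 of 8 libraries.

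**Figure D1:**
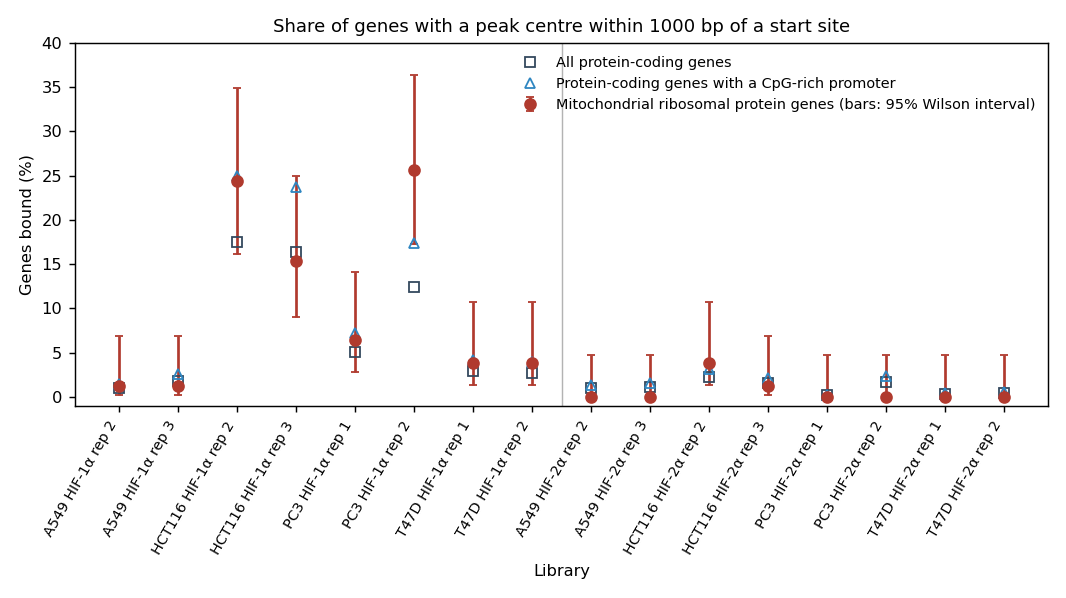
Share of genes bound (vertical axis, percent) in each of the 16 libraries (horizontal axis), for mitochondrial ribosomal protein genes (filled circles, bars for the 95% Wilson interval), all protein-coding genes (squares) and those with a CpG-rich promoter (triangles). The HIF-1α libraries of HCT116 and PC3 replicate 2 carry the high shares, and 6 of the 8 HIF-2α libraries are at 0.

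HIF-2α peaks were found at 4 of the 78 genes, all in HCT116. Replicate 2 had 3 bound genes (3.85%, Wilson 95% interval 1.32 to 10.7) against 2.26% of all genes, and replicate 3 had 1 (1.28%, 0.227 to 6.91) against 1.53%. None was the same in both replicates. The other 6 HIF-2α libraries had 0 of 78 bound. That allows a share of up to 3.85%, taken as 3 counts of the total, or 4.69% as the upper Wilson limit. The shares of all genes in those libraries were below both limits, at 1% and 1.14% in A549 replicates 2 and 3, 0.202% and 1.74% in PC3 replicates 1 and 2, and 0.368% and 0.444% in T47D replicates 1 and 2. A lack of HIF-2α peaks at these genes was thus not detectable as a difference from other genes in lists of this length.

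Pooled over the HIF-1α libraries, 32 genes (41.0%) had a peak in at least 1 library, against 28.2% of all protein-coding genes. The corresponding share was 39.8% of genes with a CpG-rich promoter, 36.0% of 75 other genes of mitochondrial translation and transcription, and 26.4% of the 87 cytosolic ribosomal protein genes. Over the HIF-2α libraries it was 4 genes (5.13%) against 5.22% of all genes, and over all 16 libraries 33 genes (42.3%) against 29.2%. Without HCT116 HIF-2α replicate 2, the HIF-2α number was 1. Asking for both replicates of at least 1 HIF-1α group left 10 genes (12.8%), against 12% of all genes, 17.3% of those with a CpG-rich promoter and 11.5% of cytosolic ribosomal protein genes. That number was 4 without HCT116 HIF-1α replicate 2, and 4 without its replicate 3. For HIF-2α it was 0, against 1.22% of all genes.

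**Figure D2:**
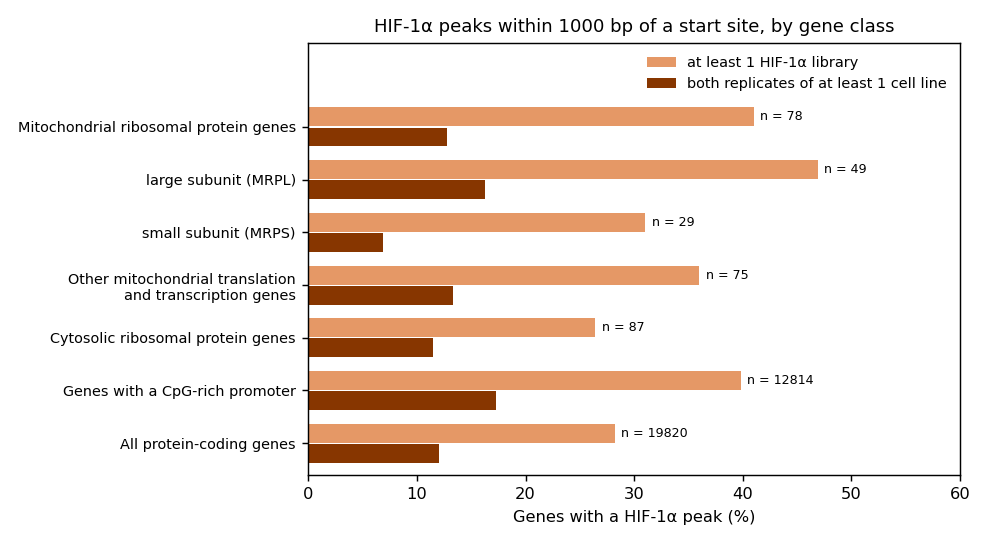
Percent of genes with a HIF-1α peak (horizontal axis) in at least 1 library (light bars) and in both replicates of at least 1 cell line (dark bars), by gene class, with the number of genes in each class. The light bar of the 78 genes, at 41.0%, is longer than that of all genes at 28.2%, and the dark bars, at 12.8% and 12%, are nearly equal.

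Replicated HIF-1α binding differed in extent between cell lines. HCT116 had 9 genes with a peak in both replicates (11.5%) against 10.7% of all genes: MRPL12, MRPL17, MRPL23, MRPL39, MRPL40, MRPL45, MRPL55, MRPS26 and MRPS34. PC3 had 4 (5.13%) against 3.93%, namely MRPL19, MRPL39, MRPL40 and MRPS26. T47D had MRPL39 and MRPL40 (2.56%) against 1.77%, and A549 had MRPL39 (1.28%) against 0.752%. No HIF-2α group had any. The shares of all genes there were 0.737% for HCT116, 0.696% for A549, 0.202% for T47D and 0.161% for PC3. Of the genes bound in either replicate, 9 of 22 (40.9%) were bound in both in HCT116, beside 46.3% for all genes, and 4 of 21 (19%) in PC3, beside 28.9%. The 22 genes of HCT116 and the 21 of PC3 had 11 in common, 50% of the first and 52.4% of the second; for all genes the shared part was 39.1% of the HCT116 set and 66.8% of the PC3 set.

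The subunits differed in the same direction under both counts. Of the large-subunit genes 23 of 49 (46.9%) had a HIF-1α peak in some library and 8 (16.3%) in both replicates of a group. Of the small-subunit genes 9 of 29 (31.0%) and 2 (6.90%) did. The genes of the second count are among those of the first, so the 2 counts are not independent. The counts describe the 2 sets of genes and were not tested.

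**Figure D3:**
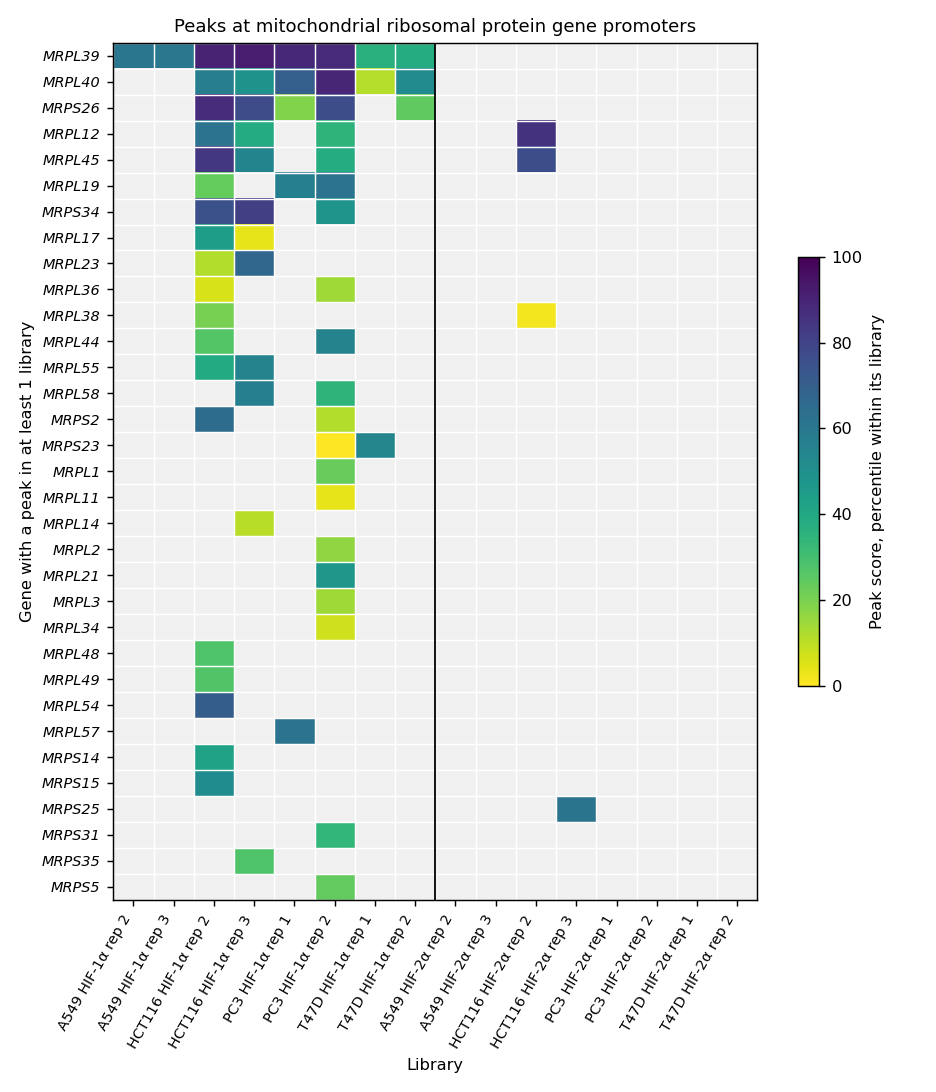
Each of the 33 genes with a peak in any library (rows) by library (columns, HIF-1α left of the line and HIF-2α right of it), coloured by the percentile of the peak score within its library, grey where no peak was listed. MRPL39 is filled in all 8 HIF-1α columns, and the 4 HIF-2α cells are all in HCT116.

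A peak in 1 or in 2 libraries was more frequent among these genes than among all protein-coding genes, which was not tested. There were 45 genes (57.7%) with no peak in any library, 17 (21.8%) with a peak in 1, 9 (11.5%) in 2, 2 in 3, 2 in 4, and 1 each in 5, 6 and 8 libraries. Of all protein-coding genes, 70.8% had none, 13.2% had a peak in 1 library and 7.36% in 2. In 3 libraries the shares were 2.56% of the set and 3.68% of all genes, and in at least 4 they were 6.41% and 4.94%. Of the 17 genes seen in a single library, 8 (47.1%) came from PC3 HIF-1α replicate 2, 5 (29.4%) from HCT116 HIF-1α replicate 2 and 2 (11.8%) from HCT116 HIF-1α replicate 3. These libraries had the longest lists, of 3413, 4505 and 4465 peaks, and gave 22.2%, 33.8% and 31.3% of all protein-coding genes seen in a single library. Counting cell lines in place of libraries, HIF-1α peaks at MRPL39 were found in 4, those at MRPL40 and MRPS26 in 3, those at 9 further genes (11.5%) in 2 and those at 20 genes (25.6%) in 1. The shares of all genes were 1.21% in 4 cell lines, 1.95% in 3, 6.96% in 2 and 18.1% in 1.

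Whether a gene was bound in more libraries with one antibody than with the other was tested gene by gene. A two-sided exact permutation test exchanged the antibody labels within cell lines in all 1296 ways, over the 979 protein-coding genes bound in at least 4 libraries, with Benjamini-Hochberg adjustment over all of them. The smallest p this design can give is 0.00154, which 26 genes reached, and the smallest adjusted p was 0.0581, so that 0 genes (0%) passed the threshold of 0.05. At an unadjusted p under 0.05 there were 297 genes, all with more HIF-1α libraries. Only 5 of the 78 genes (6.41%, beside 4.94% of all genes) were bound often enough to be tested. All 5 had more HIF-1α than HIF-2α libraries, an order shared by the list lengths in HCT116, PC3 and T47D. MRPL39, MRPL40 and MRPS26 reached the limit of 4 libraries through HIF-1α libraries alone, so their order is no independent result. The share of all tested genes with that order is not given here.

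MRPL39 was bound in 8 of 8 HIF-1α and 0 of 8 HIF-2α libraries (exact permutation p = 0.00154, Benjamini-Hochberg adjusted p = 0.0581). MRPL40 was bound in 6 of 8 and 0 of 8 (exact permutation p = 0.00926, adjusted p = 0.0824), and MRPS26 in 5 of 8 and 0 of 8 (exact permutation p = 0.0278, adjusted p = 0.0975). The groups were thus fully apart for MRPL39 and overlapped at 0 for the other two. MRPL12 and MRPL45 were each bound in 3 HIF-1α libraries and 1 HIF-2α library (exact permutation p = 0.500, adjusted p = 0.584 for each). The call on MRPL39 depended on which libraries were in the test. Its adjusted p was 0.0385 without A549 HIF-1α replicate 2, 0.0377 without HCT116 HIF-1α replicate 2, 0.0389 without HCT116 HIF-1α replicate 3 and 0.0391 without PC3 HIF-1α replicate 2. It was 0.0467 without PC3 HIF-2α replicate 2, 0.0485 without T47D HIF-1α replicate 1, and 0.0420 without PC3 HIF-1α replicate 1, where MRPL40 passed too. In the other 9 tests that left out 1 library no gene passed, with smallest adjusted p-values of 0.0506 to 0.0581, and a replicate block that exchanged labels within pairs of the same number gave 0.202.

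MRPL39 encodes a protein of the large subunit that has no bacterial counterpart. Of all protein-coding genes, 107 (0.540%) had a peak in every HIF-1α library, and 26 of these, MRPL39 among them, had none in any HIF-2α library. The deposited peak score, whose scale is not stated and which was used here to rank peaks within a library, was 229.32 and 216.18 in HCT116 replicates 2 and 3, 170.25 and 197.98 in PC3 replicates 1 and 2, 82.65 and 93.62 in A549 replicates 2 and 3, and 65.67 and 65.97 in T47D replicates 1 and 2. Within their own libraries these peaks ranked from the 36.5th percentile of scores in T47D replicate 1 to the 92.1st in HCT116 replicate 3. Percentiles depend on the length of each list: among the 275 best peaks of each library, the MRPL39 peak was kept in both A549 replicates and PC3 replicate 1 and in no other library. All 8 peaks lay between positions 26979052 and 26980621 of chromosome 21, across the start of the gene, which is on the minus strand at 26957968 to 26979829. Their centres were 7 to 78 bp from the nearest of its 3 start sites. No other protein-coding gene started within 1000 bp, and the nearest HIF-2α peak was 231594 bp away.

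MRPL40 encodes another large-subunit protein without a bacterial counterpart, and lies in the region of chromosome 22 that is deleted in DiGeorge syndrome. Its HIF-1α peaks scored 86.98 and 74.83 in HCT116 replicates 2 and 3, 88.32 and 217.55 in PC3 replicates 1 and 2, and 53.24 and 76.7 in T47D replicates 1 and 2. The PC3 replicate 2 peak was at the 89.3rd percentile of its library and the weakest, T47D replicate 1, at percentile 11.2. Neither A549 library had one. The centres lay 13 to 253 bp from the start site at position 19420068 of chromosome 22. The promoter is shared with HIRA, a histone chaperone gene transcribed in the opposite direction, whose start was within 1000 bp of all 6 centres, although the MRPL40 start was nearer in each. The nearest HIF-2α peak was 282835 bp away.

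MRPS26, a small-subunit protein gene, had HIF-1α peaks with scores of 190.91 and 117.46 in HCT116 replicates 2 and 3, 55.18 and 129.67 in PC3 replicates 1 and 2, and 57.73 in T47D replicate 2. Its percentiles ran from 19.1 in PC3 replicate 1 to 87.2 in HCT116 replicate 2, so the replicates of PC3 differed as widely as the cell lines. All 5 centres were downstream of its single start site at position 3026698 of chromosome 20, by 103 to 246 bp, inside the gene. The nearest HIF-2α peak lay at 25545 bp.

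MRPL45 and MRPL12 were the genes with peaks of both isoforms in 4 libraries. MRPL45 encodes a protein at the exit of the tunnel through which new chains leave the ribosome, near the inner membrane. Its HIF-1α peaks scored 160.86 and 80.26 in HCT116 replicates 2 and 3 and 69.3 in PC3 replicate 2, and its HIF-2α peak in HCT116 replicate 2 scored 86.68. The 4 centres lay 4 to 59 bp from a start site on chromosome 17. MRPL12 encodes a protein of the ribosomal stalk that also binds the mitochondrial RNA polymerase. Its HIF-1α peaks scored 94.16 and 66.33 in HCT116 replicates 2 and 3 and 67.37 in PC3 replicate 2, and its HIF-2α peak in HCT116 replicate 2 scored 117.13, the 85.3rd percentile of that library. These were broad peaks of 1973 to 2798 bp with centres 77 to 657 bp from the start, and a second protein-coding gene, ENSG00000262660, started in reach of all 4, so that MRPL12 was not the sole candidate.

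**Figure D4:**
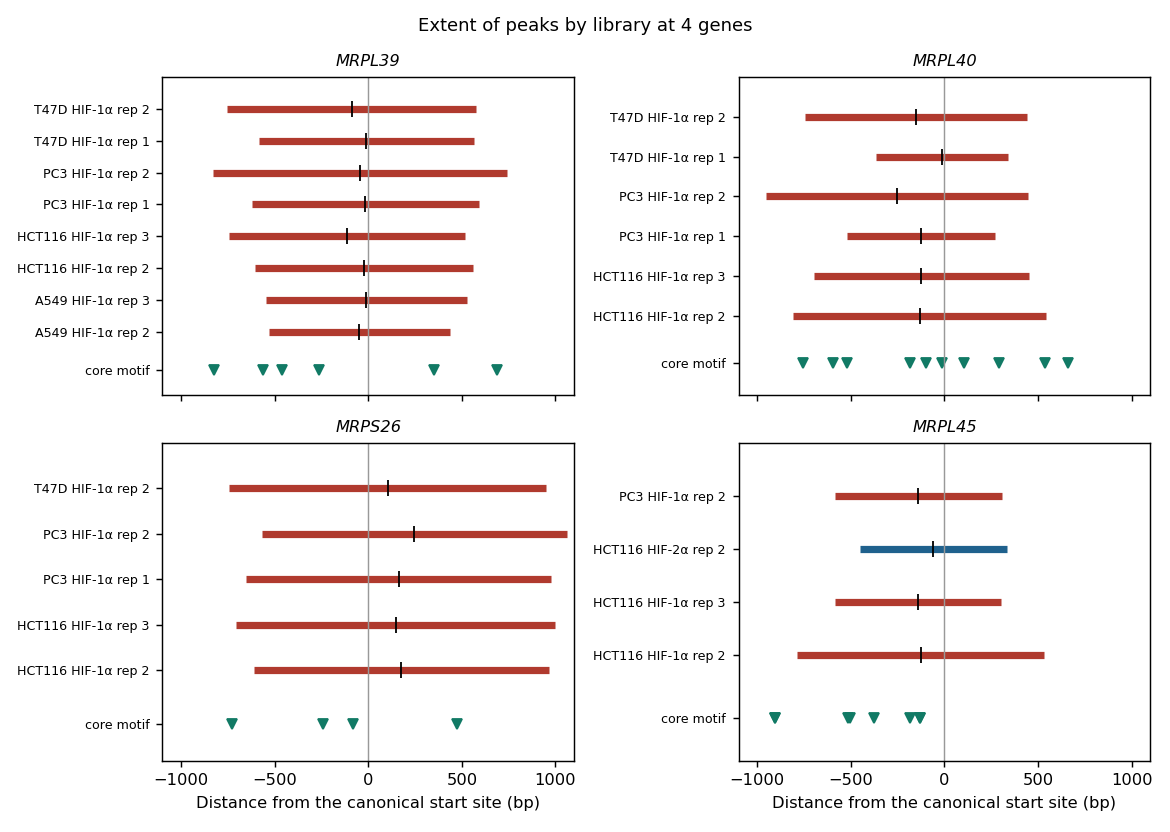
Extent of each peak (bars, HIF-1α in red and HIF-2α in blue) with its centre (black tick) by distance from the canonical start site in bp, 1 row per library, at MRPL39, MRPL40, MRPS26 and MRPL45, with occurrences of RCGTG on either strand as triangles. At MRPL39 the centres cluster at the start site where no triangle falls, and at MRPL40 and MRPL45 triangles fall beside the centres.

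The other 5 genes with replicated binding had it in 1 cell line. MRPL19, a large-subunit protein with a bacterial relative, scored 73.59 and 94.26 in PC3 replicates 1 and 2 and 59.03 in HCT116 replicate 2. MRPS34, a small-subunit protein whose mutation causes Leigh syndrome, scored 123.65 and 129.99 in HCT116 replicates 2 and 3 and 78.85 in PC3 replicate 2, but EME2 started in reach of all 3 peaks and NME3 of 1. MRPL17 scored 72.88 and 51.2, MRPL23 53.68 and 96.66, and MRPL55 68.79 and 80.7 in HCT116 replicates 2 and 3. MRPL17 and MRPL23 have bacterial relatives, MRPL23 at the tunnel exit, and MRPL55 has none. The 2 peaks of MRPL23 overlapped but had their centres apart, with one centre 499 bp upstream of the nearest start and the other 189 bp downstream.

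Short stretches of sequence are shown for the 6 genes bound in the most libraries after ties were ranked by score percentile, to show how the core motif lay relative to their peaks. Each line gives the occurrence of RCGTG nearest to the mean peak centre within the part common to all peaks of the gene, with the core in capitals, read 5′ to 3′ on the strand that carries it.
MRPL39, chr21:26980043-26980071, minus strand: cctgcagagcctACGTGgtgggcggcagg
MRPL40, chr22:19419956-19419984, minus strand: ggcgttccggctGCGTGggctgggacgcg
MRPS26, chr20:3026601-3026629, plus strand: cggccgggcgggGCGTGagggacagcccg
MRPL45, chr17:36452990-36453018, plus strand: actcccgcgagcACGTGcgcgtcctcgct
MRPL12, chr17:79670114-79670142, plus strand: agcgggcgggagACGTGgattactgcggg
MRPS34, chr16:1822781-1822809, minus strand: cacggcgcaggtGCGTGcaccccgtccgc
The coordinates are those of GRCh37. The core lay 14 bp from the mean centre at MRPL45, 35 bp at MRPL40, 220 bp at MRPL39 and 250 bp at MRPS26. It lay 70 bp from the mean centre at MRPL12, but there the mean was near none of the peak centres. These were at -611, 77, -657 and -164 bp from the canonical start, and the core was at -269 bp. At MRPS34 the peak centres, at 882, 131 and -41 bp from the canonical start, were too far apart for their mean to lie near any of them, and the core was 340 bp downstream of that start.

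In the central 200 bp of the peaks, RCGTG was present in 6 of 6 peaks of MRPL40 and 4 of 4 of MRPL45, in 1 of 4 of MRPL12 and 1 of 3 of MRPS34, and in 0 of 8 of MRPL39 and 0 of 5 of MRPS26. The 250 bases upstream of the outermost annotated start of MRPL39 and MRPL40, which hold no annotated exon, show the difference, with RCGTG in capitals on the strand of the gene and its complement CACGY where the core is on the other strand.
MRPL39, chr21:26979830-26980079, minus strand: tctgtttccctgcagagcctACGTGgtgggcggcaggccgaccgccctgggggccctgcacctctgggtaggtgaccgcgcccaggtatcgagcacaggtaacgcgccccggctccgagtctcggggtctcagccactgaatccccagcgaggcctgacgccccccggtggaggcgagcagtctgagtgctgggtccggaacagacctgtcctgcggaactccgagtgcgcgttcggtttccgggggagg
MRPL40, chr22:19419818-19420067, plus strand: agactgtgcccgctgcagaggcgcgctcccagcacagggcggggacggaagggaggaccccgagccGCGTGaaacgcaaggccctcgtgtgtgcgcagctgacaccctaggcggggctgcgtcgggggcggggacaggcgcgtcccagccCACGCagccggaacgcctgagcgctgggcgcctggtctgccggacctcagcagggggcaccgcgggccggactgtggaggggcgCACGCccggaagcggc
The stretch of MRPL39 holds 1 core, at its far end, and that of MRPL40 holds 3, spread over its length. That the letters are missing from a window says nothing about how the factor came to be recovered there.

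Over all 64 pairs of a HIF-1α peak and a gene of the set, RCGTG was in the central 200 bp of 37 (57.8%), beside 64.5% of the pairs with any protein-coding gene. By gene, RCGTG occurred on either strand within 250 bp of the canonical start site in 64 of 78 genes (82.1%), beside 70.4% of all protein-coding genes. A palindromic CACGTG counts on both strands. Genes with the motif had a HIF-1α peak more often, 28 of 64 (43.8%) against 4 of 14 (28.6%), and the same order held for all genes, 33.8% against 15.1%. Neither difference was tested. CpG-rich promoters, in which a motif holding CG has more places to occur, made up 87.2% of the 78, beside 64.7% of all.

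A second property of the set was the sharing of promoters. Another protein-coding gene started on the opposite strand within 1000 bp upstream of 29 of the 78 (37.2%), beside 14.3% of all protein-coding genes. MRPL46 and MRPS11 formed such a pair with each other, and neither had a peak in any library. Among the 78, genes with a divergent partner had a HIF-1α peak in 9 of 29 (31.0%) and those without one in 23 of 49 (46.9%). Over all protein-coding genes the order was the opposite, with a peak in 41.7% of those with a divergent partner, beside 28.2% of all. Neither contrast was tested. Another gene was within reach of the peak in 20 of 64 HIF-1α pairs (31.2%), beside 24% of the 12122 pairs of a HIF-1α peak and any protein-coding gene, and the gene of the set had the nearest start in 56.

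HIF-1α peaks lay close to the start sites of these genes, and few of them were among the highest-scoring peaks of their libraries. The median distance was 104 bp, beside 137 bp over the pairs with any protein-coding gene, and 54 of 64 (84.4%) were within 250 bp, beside 70.5%. On the strand of the gene, 33 centres were upstream and 31 downstream. Above the 50th percentile of scores were 29 (45.3%), beside 53.8% of the pairs with any gene, and 2 (3.12%) reached the 90th percentile, beside 9.94%. Both were peaks of MRPL39 in HCT116. In PC3 HIF-1α replicate 2, the library with the most bound genes of the set, their median percentile was 34.3, beside 49.5 for all its promoter peaks, while in PC3 replicate 1 it was 61.9 beside 54.4.

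**Figure D5:**
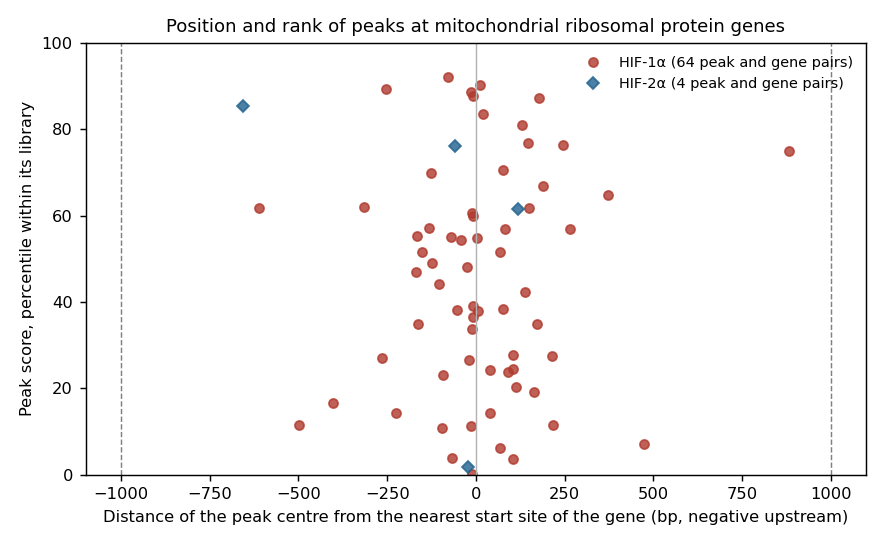
Percentile of the peak score within its library (vertical axis) against the distance of the peak centre from the nearest start site of the gene in bp (horizontal axis, negative upstream), for 64 HIF-1α (circles) and 4 HIF-2α (diamonds) pairs of peak and gene. Dashed lines mark the limit of 1000 bp, and 54 of the 64 circles lie within 250 bp of 0.

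The farthest peaks inside it were those of MRPS34 in HCT116 HIF-1α replicate 2 at 882 bp and of MRPL12 in HCT116 HIF-2α replicate 2 at 657 bp. The next outside were a HIF-2α peak 2093 bp from MRPL34, a HIF-2α peak 3591 bp from MRPL4 and a HIF-1α peak 3906 bp from MRPL35. Within 50000 bp, 66.7% of the 78 genes had a HIF-1α peak and 29.5% a HIF-2α peak, beside 54.3% and 25.1% of all protein-coding genes.

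The remaining bound genes had no group with both replicates. In 2 libraries there were HIF-1α peaks at MRPL36, MRPL44, MRPL58, MRPS2 and MRPS23. MRPL58 is the peptidyl-tRNA hydrolase that frees stalled chains, with scores of 82.35 in HCT116 replicate 3 and 67.21 in PC3 replicate 2, and MRPL44, an RNase III-like protein, scored 60.65 in HCT116 replicate 2 and 85.78 in PC3 replicate 2. MRPL38 had a HIF-1α peak (57.34) and a HIF-2α peak (50.3) in HCT116 replicate 2 of each antibody, at percentiles 20.4 and 1.82 of their lists. MRPS25 was the one gene with a HIF-2α peak and no HIF-1α peak. Its score was 66.08 in HCT116 HIF-2α replicate 3, and the nearest HIF-1α peak was 140717 bp away.

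A HIF-1α peak in 1 library and no other peak was seen at 16 genes. In PC3 replicate 2 these were MRPL1, MRPL2, MRPL3, MRPL11, MRPL21, MRPL34, MRPS5 and MRPS31, with scores from 51.15 at MRPL11 to 77.53 at MRPL21. MRPL2 and MRPL3 belong to the oldest core of the large subunit, near the site where peptide bonds form. In HCT116 replicate 2 they were MRPL48, MRPL49, MRPL54, MRPS14 and MRPS15, and in its replicate 3 MRPL14 and MRPS35. MRPL57 was bound in PC3 replicate 1, where the start of SKA3 was nearer to the peak. The starts of TMEM63B, KLC4, IGHMBP2, ABHD8 and FAU were likewise nearer than those of MRPL14, MRPL2, MRPL21, MRPL34 and MRPL49. The highest score among the 16 was 111.93 at MRPL54 in HCT116 replicate 2.

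The 45 genes without a peak in any library were, in the large subunit, MRPL4, MRPL9, MRPL10, MRPL13, MRPL15, MRPL16, MRPL18, MRPL20, MRPL22, MRPL24, MRPL27, MRPL28, MRPL30, MRPL32, MRPL33, MRPL35, MRPL37, MRPL41, MRPL42, MRPL43, MRPL46, MRPL47, MRPL50, MRPL51, MRPL52 and MRPL53, and in the small subunit MRPS6, MRPS7, MRPS9, MRPS10, MRPS11, MRPS12, MRPS16, MRPS17, MRPS18A, MRPS18B, MRPS18C, MRPS21, MRPS22, MRPS24, MRPS27, MRPS28, MRPS30, MRPS33 and MRPS36. Their nearest HIF-1α peaks ranged from 3906 bp away at MRPL35 to 2392581 bp away at MRPS18B. Promoters were CpG-rich in 87.0% of the 46 genes without a HIF-1α peak and in 87.5% of the 32 with one, but the median number of CpG in the 1000 bp around the start was 59.5 in the former and 71.5 in the latter. For all protein-coding genes the medians were 55 without and 89 with a HIF-1α peak. RCGTG was near the start in 78.3% of the former and 87.5% of the latter.

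Genes of the same pathway outside the symbol rule were counted from a list of 75. Of these, 27 (36.0%) had a HIF-1α peak in at least 1 library, beside 28.2% of all protein-coding genes. In both replicates of a HIF-1α group 10 had one, where the share of all genes was 12%. A HIF-2α peak was found at 2, where the share of all genes was 5.22%. Of 5 further proteins of the mitochondrial ribosome 3 (60.0%) were bound by HIF-1α. GADD45GIP1, a large-subunit protein, was bound in 5 HIF-1α libraries with scores of 54.41 to 111.47 and in 0 HIF-2α libraries (exact permutation p = 0.0278, Benjamini-Hochberg adjusted p = 0.0975). It reached the limit of 4 libraries for the test through HIF-1α libraries alone, so its excess of HIF-1α libraries is no independent result. DAP3, the GTP-binding protein of the small subunit, was bound in both HCT116 replicates, and AURKAIP1 in PC3 replicate 2. YY1AP1 started within 1000 bp of DAP3.

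Among 18 assembly factors 5 (27.8%) were bound by HIF-1α, near the 28.2% of all protein-coding genes. MTERF3 was bound in the most libraries, 4, and PTDSS1 started within 1000 bp of it. Among 19 translation and tRNA-modifying factors 5 (26.3%) were bound by HIF-1α, again near that share. TRMU, which thiolates mitochondrial tRNAs, stood out in this group with peaks in 6 HIF-1α and 2 HIF-2α libraries, scores of 100.64 to 636.26 and centres 2 to 48 bp from a start site (exact permutation p = 0.0556, Benjamini-Hochberg adjusted p = 0.118). It was the 1 gene of the list with HIF-2α peaks in both replicates of a group, in HCT116. Of 22 genes of tRNA synthetases and amidotransferase subunits 9 (40.9%) had a HIF-1α peak, CARS2 and IARS2 in 3 libraries each. Of 11 genes of mitochondrial transcription 5 (45.5%) did. These included NRF1, an activator of nuclear genes for mitochondrial proteins, in 4 HIF-1α libraries (exact permutation p = 0.0556, Benjamini-Hochberg adjusted p = 0.118), the coactivator PPARGC1B in 3 HIF-1α libraries and 1 HIF-2α library, and POLRMT, the mitochondrial RNA polymerase, in 2. TRMU and NRF1 too had at least 4 HIF-1α libraries, enough to enter the test without any HIF-2α library. Their excess of HIF-1α libraries is thus no independent result.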

How the data were processed

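ChIP-seq peak lists of 16 libraries (HIF-1α and HIF-2α in A549, HCT116, PC3 and T47D cells, 8 groups of 2 replicates named from the sample labels) were used. Per the study's methods and the submitters' processing notes, reads were trimmed with Trim Galore 0.3.3, aligned to GRCh37 with BWA 0.7.5a-r405, cleaned with SAMtools 0.1.19, bedtools 2.17.0 and Picard 2.0.1, and peaks were called per library with MACS in control mode. The MACS version and control library are not given in the sources used here. Each peak carries a score deposited by the authors, whose scale is not stated. Its lowest value was 50.0 to 50.15 in every list, and it was used to rank or filter peaks within a library. Shorter lists may hold fewer peaks because of lower depth, which is unknown.

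Python 3.11.15, numpy 2.4.6, scipy 1.17.1 and matplotlib 3.10.9 were used, with GENCODE release 44 mapped to GRCh37 and the GRCh37 sequence. Of 23398 peaks, 29 lay off chromosomes 1 to 22, X and Y and were left out. CpG-rich promoters had a CpG observed to expected ratio above 0.6 and GC above 50% in the 1000 bp around the canonical start. Cytosolic ribosomal protein genes were those with symbols RPL or RPS and a digit, RPLP or RPSA, from which 14 kinase, binding-protein and readthrough symbols were left out, a departure from the planned rule. The per-gene exact permutation test with Benjamini-Hochberg adjustment was checked on simulated data. Genes bound in both replicates of a group were described individually, and the other genes were named by symbol, some with scores. Members, lists and tests were chosen with earlier results of these data known. Alternatives were other distances, start sites, peak positions, score and list-length limits, nearest-gene assignment, gene filters, pairing by replicate number, and leaving out each library.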

Additional observations from a re-analysis of the deposited data

How the results depend on the processing

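Of 198 alternative values, 170 stayed within 1.5 times of the count, or within the replicate spread of the ratio, and 28 moved. This tally is no measure of robustness. Leaving out a library of either antibody cannot change the bound counts or the ratio of the other, so part of the 170 was fixed in advance. The spread allowed for the HIF-2α ratio was 0.307 around 0.318, so that even 0.119 was counted as unmoved. Distances of 250, 500 and 5000 bp, 1 start site per gene, overlap in place of the centre, and nearest-gene assignment were counted as unmoved. The mean HIF-1α ratio was nonetheless 1.64, 1.41 and 1.14 at 250, 500 and 5000 bp, beside 1.29 at 1000 bp, where the spread allowed was 0.390. It was 1.44 with 1 start site per gene, 1.37 with overlap and 1.35 with nearest-gene assignment. Genes with both replicates of a HIF-1α group numbered 7 at 250 bp and 11 at 5000 bp, beside 10 at 1000 bp. With peaks at or above the median score of 74.5, the genes with a HIF-1α peak numbered 17, those with a HIF-2α peak 2 and those with both replicates of a HIF-1α group 5, and 49 protein-coding genes but no member passed the isoform test. With the 275 best peaks of each library, MRPL39 was the 1 gene left for HIF-1α (1 in both replicates) and MRPL12 the 1 for HIF-2α, the mean HIF-1α ratio to all genes was 0.559, and 55 protein-coding genes passed. With genes bound in at least 8 libraries tested, 65 passed, of which 1, MRPL39, was a member. Fewer genes enter the adjustment under these settings. Leaving out 1 library at a time gave 24 to 32 genes with a HIF-1α peak, 1 to 4 with a HIF-2α peak, 4 to 10 with both replicates of a HIF-1α group and 0 for HIF-2α, ratios of 1.18 to 1.38 (HIF-1α) and 0.119 to 0.363 (HIF-2α), 0 to 149 protein-coding genes passing, and 0 to 2 members. A replicate block, exchanging labels within pairs of the same number, gave 0 genes, a smallest adjusted p of 0.202 by the Benjamini-Hochberg method and 151 genes at an unadjusted p under 0.05. Deviations in the presence of peaks were little correlated between same-numbered libraries (0.0368 for A549, 0.00850 for HCT116, 0.00107 for PC3 and -0.00471 for T47D). Of the 5784 genes bound in any library, 1035 had a HIF-2α peak in at least 1 library. In either replicate of a cell line there were 605 in HCT116, 352 in PC3, 287 in A549 and 121 in T47D. Calls that are absent at most of these genes cannot decide whether the numbers pair the libraries. Unknown depth limits every comparison of counts between libraries.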
